A study of Mus musculus with 22 samples.

Results

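The genes of glycolysis, glycogen turnover and glucose uptake were examined in the white adipose tissue (WAT) and the striatum of mice labelled as given the antithyroid drug propylthiouracil (PTU) or thyroid hormone (TH). The list held 41 genes chosen by function, with earlier results of these data known. They run from the glucose transporters to the enzymes that take pyruvate to lactate or acetyl-CoA. All 41 had a row in both count tables. A row was tested where its mean normalised count over the libraries of a tissue, that is its count scaled to a common library size, exceeded 10. In WAT 41 of the 41 members passed, among 17928 genes tested. In striatum 37 members passed, among 15827 genes, and Slc2a4, Pck1, Fbp2 and Gys2 did not.

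The 22 libraries came from male wild-type C57BL/6J mice of 8 weeks, per the labels. The WAT groups were PTU for 2 weeks, TH 6 h and TH 24 h, with 4 libraries each. The striatum groups were PTU for 2 weeks (2 libraries, replicates 3 and 6), TH 12 h (4) and TH 24 h (4). The labels of the TH libraries name the hormone and the time without PTU, and the study lists PTU in the food as the hypothyroidism procedure for WAT and none for striatum. TH was given as a single injection of T3 and T4, and the time of day at which tissue was taken was not given in the sources used here.

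Total counts were 8.04 to 10.1 M per striatum library and 17.3 to 26.9 M per WAT library. Several libraries stood apart or went against their labels. In WAT, 19 skeletal muscle markers had a summed normalised count of 4886 to 683972 in the PTU libraries, 2144 to 126204 at 6 h and 51435 to 368835 at 24 h, with none of the 19 at 0 in any WAT library. In striatum, Xist, the RNA of the inactive X chromosome, exceeded the summed Y-linked genes in 1 of 2 PTU, 1 of 4 12 h and 4 of 4 24 h libraries, although the labels say male. In striatum, 9 markers of striatal projection neurons had a summed normalised count of 37938 to 55012 in PTU, 21722 to 35321 at 12 h and 2858 (replicate 2) to 57673 at 24 h. The 6 markers of cortical excitatory neurons summed to 4079 to 7471 in PTU, 9638 to 15192 at 12 h and 5708 to 23910 at 24 h. The 7 adipocyte markers summed to 259915 to 520957 in every WAT library. The 7 brown adipocyte markers, Ucp1 among them, summed to 1723 to 3113 in PTU, 5141 to 9933 at 6 h and 7645 to 22109 at 24 h.

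Glucose enters cells through SLC2A (GLUT) transporters and is trapped as glucose 6-phosphate by hexokinases. Phosphofructokinase then commits it to glycolysis, under the control of fructose 2,6-bisphosphate, which the PFKFB enzymes make and break down. Pyruvate leaves as lactate through lactate dehydrogenase and the monocarboxylate transporters, or enters the mitochondrion, where the pyruvate dehydrogenase kinases (PDK) switch off its conversion to acetyl-CoA. Glycogen is built by glycogen synthase and released by glycogen phosphorylase. In adipocytes insulin brings SLC2A4 to the cell surface, and pyruvate also feeds the making of fatty acids and of the glycerol backbone of triglyceride. Thyroid hormone is known to raise glucose use and energy expenditure in the whole animal.

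Promoter windows of 300 bases, from 250 bases before a RefSeq transcription start to its first 50 bases (GRCm38.p6), were held for 38 of the 41 members, with 59 windows in all because several genes have more than 1 start. AGGTCA, the hexamer that thyroid hormone receptors bind, was searched on both strands and lay in 10 of these windows, from 9 genes, or 16.9% against 16.3% of 32851 windows of all genes. The DR4 element, a direct repeat of AGGTCA with 4 bases between the copies, lay in 0 member windows and in 5 of all windows. CACGTG, an E-box that MLXIPL (ChREBP), MYC and clock factors can bind, lay in 8 member windows (13.6%, against 7.15% of all). The shorter ACGTG, the core of hypoxia response elements, which every CACGTG contains, lay in 26 member windows (44.1%, against 19.6%). Windows of 1 gene can overlap, and a match is only a match of letters.

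The 4 windows below belong to genes that rose in WAT by 24 h and that hold AGGTCA or CACGTG. Each is written 5′ to 3′ along its gene with those letters, or AGGTCA read on the other strand (TGACCT), in capitals.
Pfkfb1 (the third of 4 starts, chrX:150589666-150589965, plus strand): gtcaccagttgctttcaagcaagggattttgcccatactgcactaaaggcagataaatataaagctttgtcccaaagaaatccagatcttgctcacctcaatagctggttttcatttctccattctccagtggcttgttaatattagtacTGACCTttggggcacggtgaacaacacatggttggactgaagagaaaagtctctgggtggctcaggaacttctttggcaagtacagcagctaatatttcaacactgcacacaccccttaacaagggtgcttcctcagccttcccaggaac
Pygl (chr12:70227634-70227933, minus strand): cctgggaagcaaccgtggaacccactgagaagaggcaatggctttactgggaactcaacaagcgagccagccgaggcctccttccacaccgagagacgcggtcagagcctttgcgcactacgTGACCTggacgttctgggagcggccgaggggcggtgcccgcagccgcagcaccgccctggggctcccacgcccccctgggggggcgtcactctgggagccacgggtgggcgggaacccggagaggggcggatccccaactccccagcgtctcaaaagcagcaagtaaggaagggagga
Ldhb (chr6:142507908-142508207, minus strand): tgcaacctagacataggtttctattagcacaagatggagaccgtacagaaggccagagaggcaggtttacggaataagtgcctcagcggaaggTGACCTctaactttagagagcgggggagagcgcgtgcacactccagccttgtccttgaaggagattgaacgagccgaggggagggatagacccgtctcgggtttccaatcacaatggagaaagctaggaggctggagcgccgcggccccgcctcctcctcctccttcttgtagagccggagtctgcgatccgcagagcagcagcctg
Slc16a1 (chr3:104638414-104638713, plus strand): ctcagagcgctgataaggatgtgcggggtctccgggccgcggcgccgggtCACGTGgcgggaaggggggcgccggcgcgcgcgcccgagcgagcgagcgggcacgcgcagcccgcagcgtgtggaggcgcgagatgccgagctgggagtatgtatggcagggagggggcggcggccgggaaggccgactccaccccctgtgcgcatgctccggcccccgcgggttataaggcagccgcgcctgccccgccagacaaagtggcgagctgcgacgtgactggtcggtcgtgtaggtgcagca
The hexamer began 100 bases before the start of Pfkfb1, 128 before that of Pygl and 157 before that of Ldhb. The E-box began 200 bases before the start of Slc16a1. The windows of Gpi1, Pfkfb4, Pdk4 and Pdk1, which were also called in WAT, held none of the motifs searched. AGGTCA also lay in windows of Pfkm, Aldoa, Tpi1, Eno1, Pkm and Pcx. CACGTG also lay in windows of Pfkm, Pfkfb2, Pfkfb3, Ldha, Pdk2, Pcx and Fbp2. None of the genes in these further windows was called at 24 h against PTU.

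In WAT, 19 of the 41 members were called in at least 1 of the 3 contrasts, a call being an adjusted p under 0.05 in the quasi-likelihood F test of edgeR. At 6 h after TH, 4 members rose (Slc2a3, Hk2, Pfkfb1 and Pfkfb4) and 4 fell (Pfkp, Slc16a1, Pdk1 and Ugp2). At 24 h, 11 were above PTU and 1 was below. Between 6 h and 24 h, 8 rose and 2 fell. The same test called 7.23% of all genes at 6 h (4.18% higher, 3.05% lower), 17.1% at 24 h (7.45% higher, 9.62% lower) and 7.41% from 6 h to 24 h (3.07% higher, 4.35% lower). The median log2 change of the members was -0.16 at 6 h, 0.41 at 24 h and 0.29 from 6 h to 24 h, where the medians of all genes were -0.03, -0.0020 and 0.01. The count at 6 h was 4 without PTU replicate 2 and 5 without the 6 h replicate 2 or 3 or the 24 h replicate 4, and the count between the times was 3 without the 6 h replicate 1 or 2 and 6 without the 24 h replicate 3. Both TH groups were compared with the same 4 PTU libraries. In bulk tissue a smaller number of cells of a type cannot be told apart from less RNA per cell.

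**Figure D1:**
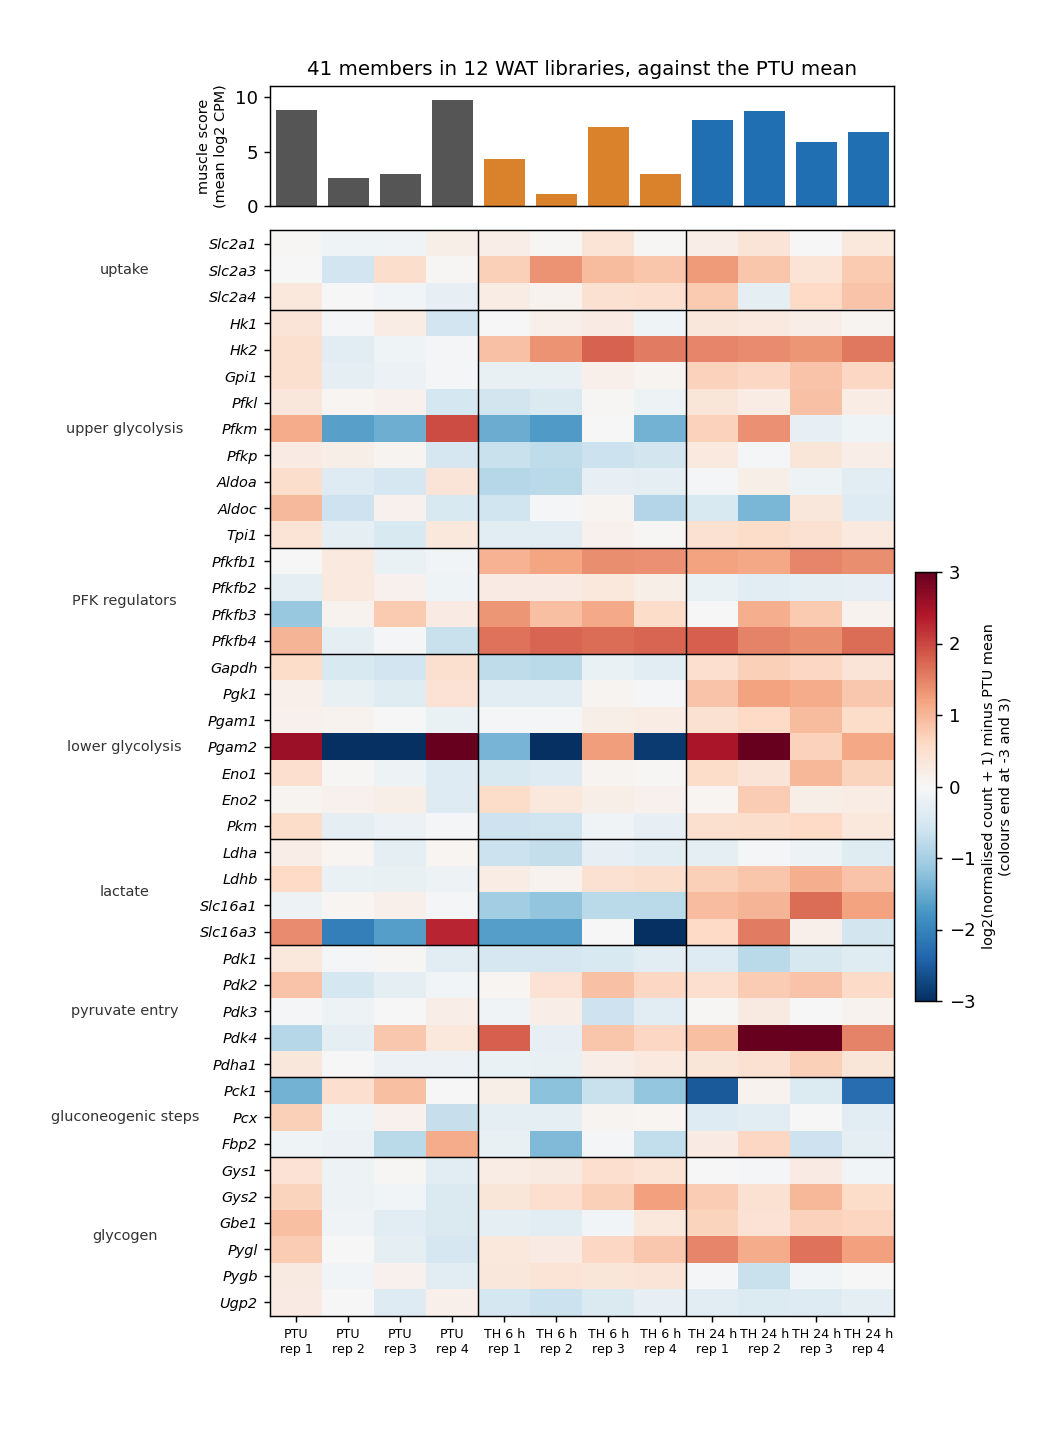
Heat map of 41 members (rows, by role) in 12 WAT libraries (columns), as log2(normalised count + 1) minus the mean of the PTU libraries, with the skeletal muscle score of each library (mean log2 CPM of 19 markers) as bars above. Hk2, Pfkfb1 and Pfkfb4 were higher in every TH library, Slc16a1 was lower at 6 h and higher at 24 h, and Pfkm, Pgam2 and Slc16a3 followed the muscle score.

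Of the transporters, Slc2a4 (GLUT4, the insulin-responsive transporter of fat and muscle) had normalised counts of 3775, 3086, 2904 and 2573 in the PTU libraries, 3544, 3269.9, 4174 and 4353 at 6 h, and 5235, 2546, 4587 and 5553 at 24 h. Its changes, 0.31 at 6 h and 0.54 at 24 h, did not pass the test (adjusted p = 0.37 and 0.098). Slc2a1 (GLUT1, the transporter most cells use for basal uptake) changed by 0.17 and 0.23 (adjusted p = 0.39 and 0.22). Slc2a3 (GLUT3, a high-affinity transporter best known from neurons) had 99.9, 67.0, 145 and 102 in PTU, 164, 256, 193 and 179 at 6 h, and 243, 177, 133 and 174 at 24 h. Every 6 h library was above every PTU library, while 1 of the 24 h libraries lay below the highest PTU library. Slc2a3 rose by a log2 change of 0.93 ± 0.24 (SE) at 6 h and 0.81 ± 0.24 at 24 h (adjusted p = 0.035 and 0.036). Each of these calls was lost in 7 of 12 fits that left out 1 library. At 6 h these were PTU replicates 1, 2 and 4, the 6 h replicates 2, 3 and 4 and the 24 h replicate 4 (adjusted p of up to 0.095). At 24 h they were PTU replicates 1, 2 and 4, the 6 h replicate 4 and the 24 h replicates 1, 2 and 4 (adjusted p of up to 0.11). Calculated per exonic base, Slc2a4 made up 83.7% to 92.5% of the 3 transporters over the WAT libraries and Slc2a3 at most 3.3%.

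Hk2, the hexokinase of insulin-sensitive tissues, had 1841, 1054, 1205 and 1294 normalised counts in PTU, 2444, 3346, 4507 and 3887 at 6 h, and 3623, 3549, 3317 and 3928 at 24 h. All TH libraries lay above all PTU libraries. The log2 changes were 1.39 ± 0.19 and 1.42 ± 0.19, or 2.63-fold at 6 h and 2.67-fold at 24 h (adjusted p = 0.0013 and 0.00049). Hk1, the hexokinase of most other cells, changed by 0.03 and 0.19 and was not called. Hk2 made up 75.9% to 85.5% of both hexokinases per exonic base in PTU, 88.1% to 92.9% at 6 h and 89.8% to 91.8% at 24 h.

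Gpi1, which turns glucose 6-phosphate into fructose 6-phosphate, had 9145, 5428, 5784 and 6345 in PTU, 5644, 5643, 7256 and 6897 at 6 h, and 10627, 10009, 11870.5 and 10124 at 24 h. It rose at 24 h against PTU (log2 change 0.67 ± 0.16, adjusted p = 0.013) and against 6 h (0.74 ± 0.16, adjusted p = 0.018). The second call was lost without the 6 h replicate 1 (adjusted p = 0.057) or the 6 h replicate 2. Of its 30-base transcript windows, 22.03% also occurred in other genes.

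Phosphofructokinase is made of liver (Pfkl), muscle (Pfkm) and platelet (Pfkp) type subunits. Pfkp had 2286, 2203, 2064 and 1365 in PTU, 1228, 1145, 1249 and 1323 at 6 h, and 2387, 1855, 2507 and 2241 at 24 h. All 6 h libraries lay below all others. It fell at 6 h by 0.68 ± 0.15 on the log2 scale (adjusted p = 0.017) and rose from 6 h to 24 h by 0.86 ± 0.15 (adjusted p = 0.0058), and at 24 h it did not differ from PTU beyond the error (0.18 ± 0.15, adjusted p = 0.42). Without PTU replicate 2 the 6 h call was lost (adjusted p = 0.055). Pfkl showed changes of -0.29 at 6 h, 0.41 at 24 h and 0.70 between them, none of which was called (adjusted p = 0.38, 0.18 and 0.053). Aldoa, Aldoc and Tpi1, the aldolases and triose phosphate isomerase, were called in none of the 3 contrasts.

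Pfkm had 2889.8, 432, 482 and 5162 in PTU, 475, 409, 1339 and 499 at 6 h, and 2163, 3431, 1114 and 1205 at 24 h. Its log2 changes of -1.72 ± 0.73 at 6 h, -0.18 ± 0.71 at 24 h and 1.54 ± 0.73 between them did not pass the test. The 3 highest libraries, PTU replicate 4, the 24 h replicate 2 and PTU replicate 1, were also the 3 with the highest muscle scores, 9.72, 8.69 and 8.77 as the mean log2 level of the muscle markers.

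Of the 4 PFKFB genes, whose enzymes set the level of fructose 2,6-bisphosphate, 2 rose at both times. Pfkfb1 (chrX:150588229-150643878, plus strand, GRCm38), the form named for liver and muscle, had 593, 739.9, 525 and 567 in PTU, 1248, 1356, 1583 and 1565 at 6 h, and 1395, 1338, 1662 and 1583 at 24 h. It rose 2.37-fold at 6 h and 2.47-fold at 24 h (log2 1.25 ± 0.12 and 1.30 ± 0.12, adjusted p = 8.75e-05 and 3.71e-05). Pfkfb4 had 430.4, 174, 204 and 133 in PTU, 662, 712, 675 and 719 at 6 h, and 732, 600.3, 562 and 676 at 24 h. It rose 2.93-fold and 2.72-fold (log2 1.55 ± 0.28 and 1.44 ± 0.28, adjusted p = 0.0057 and 0.0041). For both genes no TH library overlapped with PTU, and the calls held in all 12 fits that left out 1 library. Exons of Pfkfb1 overlap those of Apex2 on the other strand over 123 bases.

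Pfkfb3, the family member with the strongest kinase activity, had the highest level of the 4 per exonic base, 54.0% to 85.2% of their sum over the WAT libraries, and its counts ran from 2218 in PTU replicate 1 to 12200.4 in 6 h replicate 1. Its changes of 0.86 ± 0.35 and 0.42 ± 0.35 were not called (adjusted p = 0.15 and 0.43). Pfkfb2, the form known from heart, had 103, 156, 137 and 114 in PTU, 149, 149.6, 157 and 143 at 6 h, and 109, 98.9, 105 and 105 at 24 h. It fell from 6 h to 24 h by 0.52 ± 0.13 on the log2 scale (adjusted p = 0.035), a call that was lost in 8 of 12 fits with 1 library left out, each of the 6 h and 24 h libraries among them (adjusted p of up to 0.080 without the 6 h replicate 3). Of its windows 19.1% occurred in other genes, with Gm29427 on the same strand first among them.

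**Figure D2:**
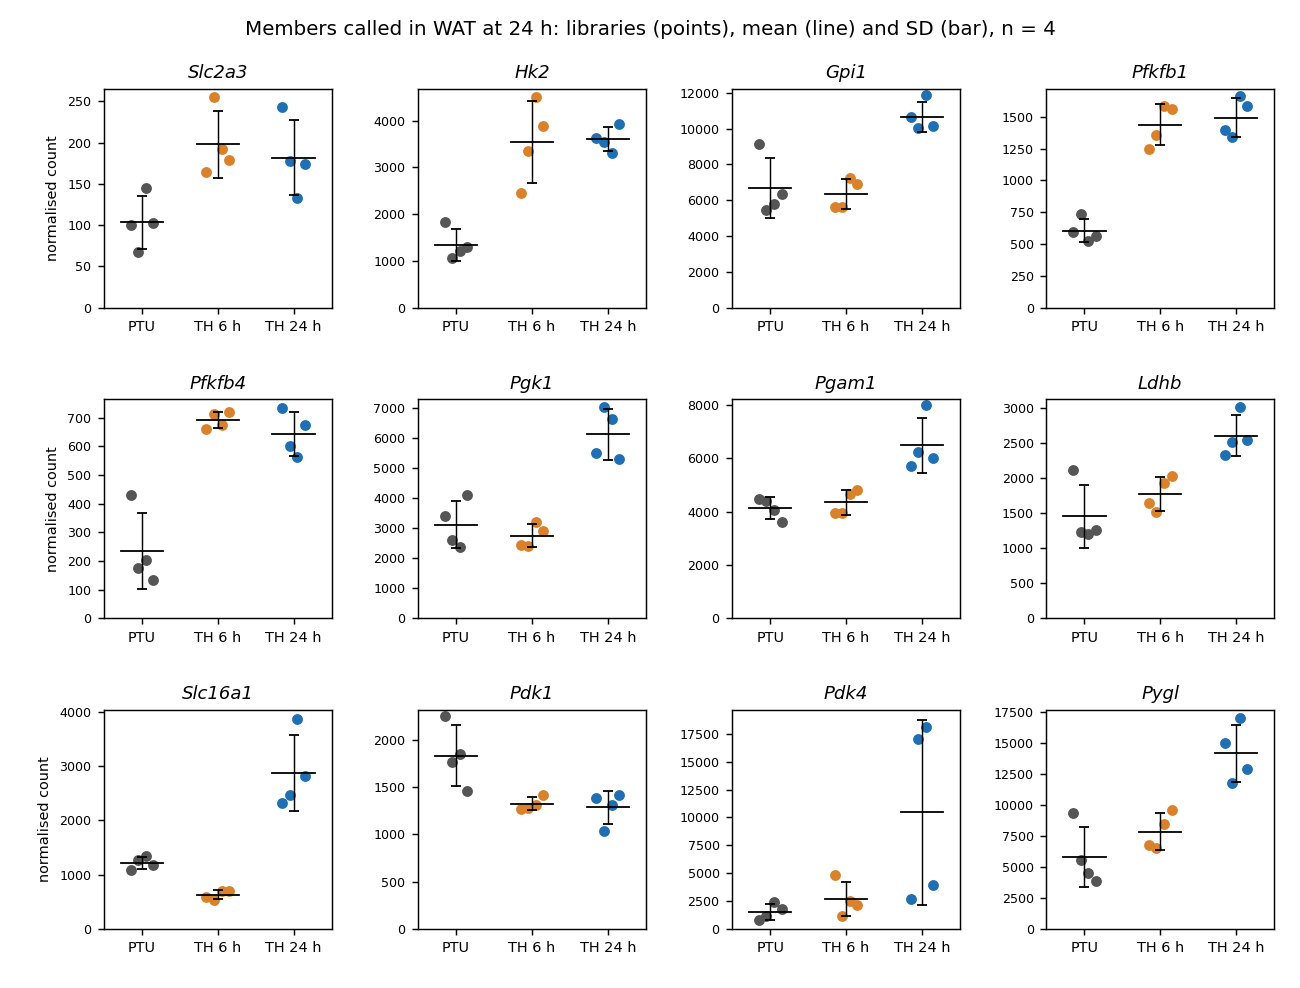
Normalised counts of the 12 members called in WAT at 24 h, with 1 panel per gene, 1 point per library, the mean as a line and the SD as a bar (n = 4 per group). Slc2a3, Hk2, Pfkfb1 and Pfkfb4 were already higher at 6 h, Gpi1, Pgk1, Pgam1, Ldhb, Pdk4 and Pygl were called at 24 h and not at 6 h, Pdk1 was lower at both times, and Slc16a1 crossed from below to above PTU.

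Lower glycolysis had 0 of 7 members called at 6 h, 2 at 24 h against PTU and 5 between 6 h and 24 h, all higher at 24 h. Pgk1 (phosphoglycerate kinase) had 3397, 2600.3, 2380.4 and 4105 in PTU, 2454, 2397, 3202 and 2914 at 6 h, and 5494, 7051, 6640.5 and 5298 at 24 h. Pgam1 (phosphoglycerate mutase) had 4476, 4399.6, 4061 and 3598 in PTU, 3961, 3943, 4658 and 4811 at 6 h, and 5696, 6242, 7985 and 6019 at 24 h. For both, every 24 h library exceeded every other WAT library. Against PTU, Pgk1 rose by 0.97 ± 0.17 (adjusted p = 0.0029) and Pgam1 by 0.65 ± 0.13 (adjusted p = 0.0045). Against 6 h the changes were 1.16 ± 0.18 and 0.58 ± 0.13 (adjusted p = 0.0028 and 0.018), and the second of these calls was lost without the 6 h replicate 1 or 2 (adjusted p of up to 0.061). Reads could not be assigned with certainty for these 2 genes, since 54.8% of the windows of Pgk1 and 37.2% of those of Pgam1 occurred in other genes, mainly Pgk1-rs7 and Pgam1-ps2.

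Gapdh had 19800.1, 9759, 8993 and 18691 in PTU, 7871, 7711, 11728 and 10531 at 6 h, and 18902, 21945, 20702 and 17441 at 24 h. Eno1 (enolase) had 22875, 16584, 14448 and 12281 in PTU, 11694, 12258, 17136 and 16555 at 6 h, and 23612, 21229, 31978 and 25619 at 24 h. Pkm (pyruvate kinase) had 16445, 9179.9, 10049 and 10776 in PTU, 7312, 7423, 10563 and 9479 at 6 h, and 15905, 16186, 17196 and 14106 at 24 h. The 24 h libraries of these 3 genes lay above all 6 h libraries and overlapped with PTU. From 6 h to 24 h Gapdh rose by 1.06 ± 0.25, Eno1 by 0.83 ± 0.21 and Pkm by 0.87 ± 0.19 (adjusted p = 0.025, 0.031 and 0.017). Against PTU at 24 h the changes were 0.46, 0.63 and 0.45 and were not called (adjusted p = 0.22, 0.053 and 0.11). Leaving out the 6 h replicate 1 or 2 ended the 3 calls between the times, with an adjusted p of up to 0.076 for Gapdh, 0.087 for Eno1 and 0.054 for Pkm. The other libraries whose omission did so were the 6 h replicate 4 and the 24 h replicates 1, 2 and 3 for Gapdh, and the 24 h replicates 1, 3 and 4 for Eno1. Shared windows made up 28.2%, 28.7% and 35.3% of these genes.

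Ldha, the lactate dehydrogenase subunit of glycolytic tissues, had 23313, 21138, 16684 and 21263 in PTU, 13055, 12444, 17318 and 16508 at 6 h, and 16562, 20118, 18409 and 15948 at 24 h. Its change of -0.47 ± 0.14 at 6 h did not pass the test (adjusted p = 0.069). Ldhb, the subunit of oxidative tissues such as heart, had 2120.3, 1224, 1204 and 1262 in PTU, 1643, 1511, 1924 and 2035 at 6 h, and 2332, 2519, 3023 and 2548 at 24 h. It rose at 24 h by 0.84 ± 0.18 (adjusted p = 0.0073), with all 24 h libraries above all others, and 33.8% of its windows occurred in Gm5514. Per exonic base Ldhb made up 10.9% to 16.1% of both subunits in PTU, 19.0% to 21.0% at 6 h and 20.9% to 25.7% at 24 h.

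Slc16a1 (MCT1, chr3:104638668-104658462, plus strand), which carries lactate, pyruvate and ketone bodies across the plasma membrane, was the only member called in opposite directions at the 2 times. It had 1088, 1268, 1344 and 1172 in PTU, 587, 535, 689 and 696 at 6 h, and 2326, 2463, 3868 and 2825 at 24 h. The 3 groups did not overlap. It fell at 6 h to 0.515 of the PTU level (log2 change -0.96 ± 0.15, adjusted p = 0.0028), and at 24 h it stood 2.36-fold above PTU (1.24 ± 0.15, adjusted p = 0.00024) and 4.58-fold above 6 h (2.20 ± 0.16, adjusted p = 5.62e-05). No fit that left out 1 library lost any of these 3 calls, and none of its 30-base windows occurred in another gene. Slc16a3 (MCT4, the lactate exporter of glycolytic muscle) had 129, 10.8, 14.4 and 239 in PTU, 14.5, 14.5, 47.1 and 4.93 at 6 h, and 72.3, 142, 53.1 and 32.1 at 24 h, and was not called (log2 changes of -2.29 ± 0.92, -0.38 ± 0.84 and 1.91 ± 0.92).

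Of the kinases that inactivate pyruvate dehydrogenase, Pdk4 showed the largest change of any member called. It had 769, 1155, 2444 and 1747 in PTU, 4861, 1183, 2488 and 2152 at 6 h, and 2627, 17059.7, 18163 and 3946 at 24 h. Replicates 2 and 3 at 24 h lay far above replicates 1 and 4, and all 4 exceeded the highest PTU library. Pdk4 rose at 24 h by a log2 change of 2.77 ± 0.65, or 6.83-fold (adjusted p = 0.012, and 0.059 without both PTU libraries with the highest muscle scores), and its change from 6 h to 24 h, 1.97 ± 0.63, was not called (adjusted p = 0.077). Pdk1 had 2259.6, 1773, 1857 and 1462 in PTU, 1275, 1286, 1315 and 1423 at 6 h, and 1392, 1036, 1309.6 and 1422 at 24 h, with every TH library below every PTU library. It fell by 0.47 ± 0.13 on the log2 scale at 6 h and by 0.51 ± 0.13 at 24 h (adjusted p = 0.047 and 0.018). The 6 h call was lost without any 1 library other than PTU replicate 4 or the 24 h replicate 2 (10 of 12 fits, adjusted p of up to 0.12), and the 24 h call in none. Pdk2, Pdk3 and Pdha1, the E1 alpha subunit of pyruvate dehydrogenase, were not called, although every 24 h library of Pdha1 exceeded every PTU library (0.46 ± 0.16, adjusted p = 0.063).

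No gene of the gluconeogenic steps was called in WAT. Pck1, which makes the glycerol backbone precursor in fat, had 12690.0, 47784, 62542 and 34139 in PTU, 38103, 14449, 21274 and 15096 at 6 h, and 5905, 36109.5, 25342 and 6908 at 24 h. Its change of -1.08 ± 0.60 at 24 h was within the spread between libraries (adjusted p = 0.24). Pcx (pyruvate carboxylase) and Fbp2 (the muscle fructose bisphosphatase) showed changes of -0.18 and -0.70 at 6 h, and of -0.34 and -0.09 at 24 h.

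Among the glycogen genes Pygl, the liver type phosphorylase, had 9306, 5513, 4518 and 3858 in PTU, 6770.1, 6496, 8475 and 9621 at 6 h, and 15009.6, 11800.5, 16982 and 12882 at 24 h. It rose at 24 h by 1.29 ± 0.25, or 2.44-fold (adjusted p = 0.0043), and all 24 h libraries exceeded all others. Pygb, the brain type phosphorylase, had 3515, 2781, 3214 and 2328 in PTU, 3672, 3876, 3733 and 3807 at 6 h, and 2792, 1835, 2755 and 2894 at 24 h. It fell from 6 h to 24 h by 0.55 ± 0.15 (adjusted p = 0.046), a call lost in 10 of 12 fits, without any 1 library other than PTU replicates 1 and 4 (adjusted p of up to 0.097). Pygl made up 49.5% to 64.9% of both phosphorylases per exonic base in PTU, 53.9% to 63.8% at 6 h and 75.6% to 81.8% at 24 h. Ugp2, which makes the UDP-glucose used for glycogen, had 3489, 2912, 2243 and 3272 in PTU, 2050.2, 1876, 2173 and 2475 at 6 h, and 2342, 2199, 2239 and 2451 at 24 h. It fell at 6 h by 0.47 ± 0.13 (adjusted p = 0.046), with overlapping groups, and 10 of 12 fits lost the call, all but those without PTU replicate 3 or the 6 h replicate 4 (adjusted p of up to 0.12). Gys1, Gys2 and Gbe1, the synthases and the branching enzyme, were not called. The synthase of liver, Gys2, made up 32.0% to 38.1% of both synthases per exonic base in PTU and 42.3% to 46.3% at 24 h.

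**Figure D3:**
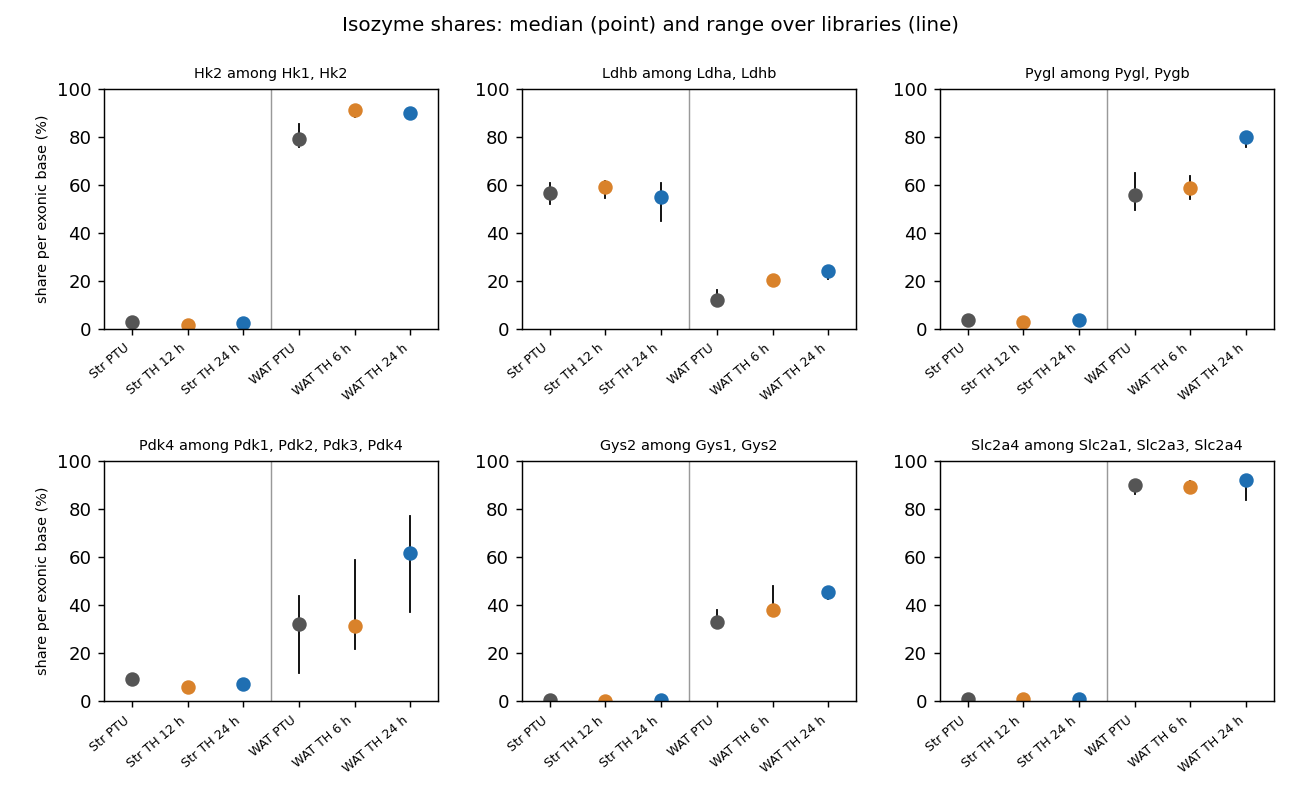
Share of 1 isozyme among the members of its family, per exonic base, as the median (point) and range (line) over the libraries of each of 6 groups, in percent. In WAT the shares of Hk2, Ldhb, Pygl and Gys2 at 24 h lay above those in PTU without overlap, and in striatum Hk2 and Pygl stayed under 5%.

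Some cell type markers were called between the WAT groups. Of 7 brown adipocyte markers, 3 rose at 6 h (Ucp1, Dio2 and Ppargc1a) and 5 at 24 h (those and Cox8b and Cox7a1), and of 7 adipocyte markers 0 were called at 6 h and 4 fell at 24 h (Adipoq, Plin1, Cidec and Retn). From 6 h to 24 h, 1 brown adipocyte marker rose and 1 fell, and 3 adipocyte markers fell. Over all genes 7.23% were called at 6 h, 17.1% at 24 h and 7.41% from 6 h to 24 h. None of the 19 muscle markers, 6 leukocyte markers or 5 erythrocyte markers was called in a WAT contrast. The muscle markers nevertheless moved far, with a wide spread between libraries. Their log2 changes had a median of -2.84 at 6 h (-3.55 to -2.28), -0.50 at 24 h (-3.59 to -0.10) and 2.36 from 6 h to 24 h (-0.04 to 2.59). The part of brown or beige adipocytes in the changes of the members was not tested.

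Skeletal muscle is rich in glycolytic enzymes, and the WAT libraries differed widely in it. The muscle score, the mean log2 CPM (count scaled to library size) of the 19 markers, none of them a member, was 8.77, 2.63, 2.95 and 9.72 in PTU, 4.28, 1.16, 7.28 and 2.92 at 6 h, and 7.83, 8.69, 5.89 and 6.81 at 24 h. With the score as a term beside the groups, 5 members followed it, with adjusted p under 0.05 (2.10% of all genes, 2.08% with a higher and 0.0167% with a lower level at a higher score). Pgam2, the muscle mutase, rose by 1.03 ± 0.03 on the log2 scale per unit of score, Slc16a3 by 0.52 ± 0.07, Pfkm by 0.43 ± 0.04, Fbp2 by 0.20 ± 0.05 and Gapdh by 0.13 ± 0.03. Pgam2 had 1709, 32.3, 23.5 and 4929 in PTU, 108, 8.85, 689 and 38.6 at 6 h, and 1559.8, 3111, 465 and 639.7 at 24 h, in nearly the order of the scores. Aldoa and Tpi1 had slopes of 0.11 and 0.09 (adjusted p = 0.055 and 0.056). Without PTU replicate 3 or 4 the number of such members was 3. Gapdh was lost without any 1 of the 4 PTU libraries, and Fbp2 in 10 of 12 fits, all but those without PTU replicate 1 or 2 (adjusted p of up to 0.26).

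With the muscle score in the fit, the calls were 5 at 6 h, 14 at 24 h and 4 between the times, with 6.65%, 15.9% and 2.79% of all genes. Hk2 (1.53 ± 0.18 at 6 h and 1.36 ± 0.17 at 24 h), Pfkfb1 (1.22 and 1.32), Pfkfb4 (1.66 and 1.40), Slc16a1 (-1.002 and 1.27), and Pfkp at 6 h (-0.74) passed the test there as well, while Slc2a3, Pdk1 and Ugp2 did not at 6 h. Gpi1, Pgk1, Pgam1, Ldhb, Pdk1, Pdk4, Pygl and Slc2a3 remained called at 24 h, and Pgam2 (0.60 ± 0.17) and Ugp2 (-0.41 ± 0.12) were added. From 6 h to 24 h Pfkp, Pgk1, Pgam1 and Slc16a1 remained, while Gapdh, Eno1, Pkm, Gpi1, Pfkfb2 and Pygb did not (adjusted p = 0.073, 0.10, 0.076, 0.085, 0.18 and 0.17). When both PTU libraries with the highest score were left out, a choice made after seeing the data, 22 members were called at 24 h, 20 of them higher, with 21.8% of all genes called and 9.27% called higher. Pdk4 (adjusted p = 0.059) and Slc2a3 (adjusted p = 0.12) were not called in that fit. The PTU libraries left in it had muscle scores of 2.63 and 2.95, and the 24 h libraries 5.89 to 8.69. Muscle content and time at 24 h against PTU therefore cannot be told apart there. The muscle-type genes Pgam2 and Pfkm changed by 5.72 and 2.12 in that fit.

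**Figure D4:**
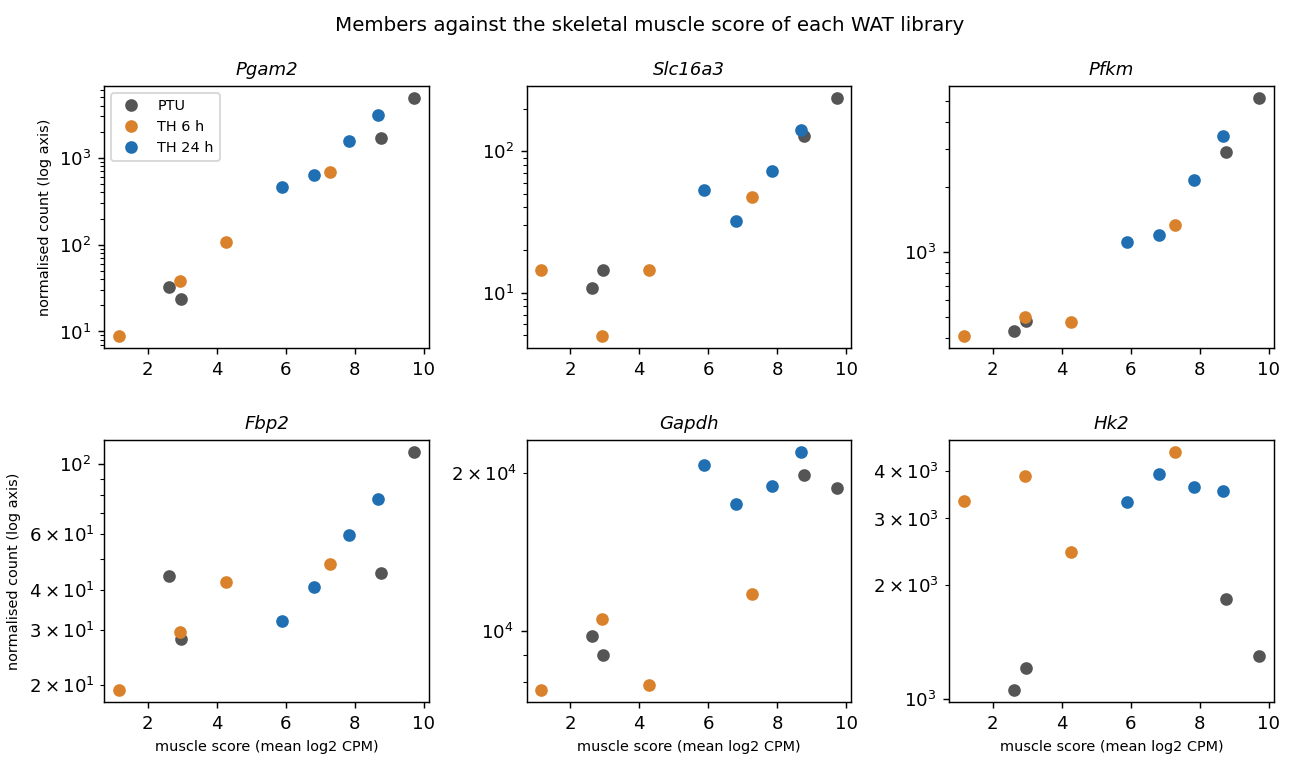
Normalised count (log axis) of 6 members against the skeletal muscle score (mean log2 CPM) of the 12 WAT libraries, 1 point per library, coloured by group. Pgam2 and Pfkm rose with the score in the 3 groups, Slc16a3, Fbp2 and Gapdh rose with more scatter, and Hk2 was higher in the TH libraries than in PTU at low and at high scores.

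Other genes of glucose metabolism were read from 5 further lists. Over all genes the test called 7.23% at 6 h (4.18% higher, 3.05% lower) and 17.1% at 24 h (7.45% higher, 9.62% lower). From 6 h to 24 h it called 7.41%. The genes called in the list of 19 other glucose genes included Mlxipl, the glucose-sensing factor ChREBP, which rose at both times (1.27 ± 0.34 and 1.64 ± 0.34), and Slc2a5, the fructose transporter, which rose at 24 h (1.27 ± 0.33). They also included Slc2a13, which fell at 24 h (-1.56 ± 0.35), and Slc16a7 (MCT2), which fell at 24 h against PTU (-1.09 ± 0.14) and against 6 h (-0.96 ± 0.14). On the way from pyruvate to acetyl-CoA, 5 of 10 rose and 1 fell at 24 h, with a median of 0.44. Pdhb, the E1 beta subunit of pyruvate dehydrogenase, had 7840.3, 5836, 4621 and 5262 in PTU, 6871, 6002, 8073 and 10032 at 6 h, and 14802, 12866, 16990.1 and 15589.8 at 24 h, a log2 change of 1.35 ± 0.19 at 24 h. Dlat, its E2 subunit, changed by 1.10 ± 0.15 and Mpc1, a subunit of the mitochondrial pyruvate carrier, by 0.76 ± 0.17. Pdp2, a phosphatase that reactivates the complex, rose at 6 h (1.94 ± 0.28) and at 24 h (1.31 ± 0.28), and Pdp1 fell at 6 h (-0.66 ± 0.14).

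In the list of other glycogen genes 0 of 24 rose, 3 fell at 6 h and 6 fell at 24 h, with medians of -0.24 and -0.14. Ppp1r3d, a subunit that takes protein phosphatase 1 to glycogen, changed by -1.05 ± 0.18 and -1.54 ± 0.18, and Gyg, the glycogenin primer, by -0.52 ± 0.14 and -0.63 ± 0.14. Of 8 pentose phosphate genes Tkt (transketolase, 1.08 ± 0.28) rose and Rpe (-0.52 ± 0.13) fell at 24 h, and none was called at 6 h. Of 14 genes between insulin and glucose uptake, Akt1 rose at both times (0.56 ± 0.11 and 0.85 ± 0.12) and Insr, the insulin receptor, at 6 h (0.29 ± 0.08). Akt2, the form that acts on GLUT4 transport, fell at 24 h (-0.42 ± 0.12), as did Aspscr1 (-0.35 ± 0.10). Between 6 h and 24 h, 4 rose on the way to acetyl-CoA (Mpc1, Pdhb, Dlat and Mpc2), 1 glycogen gene fell (Phka2), 2 insulin genes fell (Insr and Akt2), and 0 pentose phosphate genes were called. At 24 h against PTU the calls made up 25% of the glycogen list, 25% of the pentose phosphate list and 21.4% of the insulin list. Over all genes they made up 17.1%.

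In striatum none of the 37 members was called by edgeR at 12 h, at 24 h or between these times. All genes tested gave 0.960% calls at 12 h (0.733% higher, 0.227% lower), 0.348% at 24 h (0.316% higher, 0.0316% lower) and 0% between the times (0% higher and 0% lower). At an unadjusted p under 0.05 there were 7, 2 and 4 members, and DESeq2 called 1, 0 and 0 (5.16%, 1.28% and 1.52% of all genes). The changes ran from -0.49 to 0.53 at 12 h, from -0.54 to 0.52 at 24 h and from -0.21 to 0.40 between them, with medians of 0.00, 0.08 and 0.03. With 2 PTU libraries, a change that does not pass the test is not shown to be absent.

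The sums of neuronal markers differed between the striatum groups. At 12 h every library had a higher sum of cortical excitatory neuron markers and a lower sum of projection neuron markers than both PTU libraries, with median log2 changes of 0.97 over the 6 cortical and -0.90 over the 9 projection neuron markers, none of them called. At 24 h the medians were 1.17 and -0.37, with overlapping sums. The part of the dissected cells in the changes of the members was not tested.

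The lowest p-values at 12 h belonged to Pcx and Aldoa. Pcx, which in brain works in astrocytes to refill the citric acid cycle, had 115 and 113 normalised counts in PTU, 171, 148, 160.4 and 173 at 12 h, and 146, 150.2, 189 and 148 at 24 h. All TH libraries exceeded both PTU libraries, with changes of 0.52 ± 0.14 and 0.47 ± 0.14 (adjusted p = 0.089 and 0.28). Aldoa had 5354 and 5658 in PTU, 6934, 6975, 6774 and 7107 at 12 h, and 5500.4, 6381, 6045 and 6501 at 24 h. Its change at 12 h was 0.34 ± 0.10 (adjusted p = 0.11, and 0.012 by DESeq2, which called it). Hk1, the main brain hexokinase, had 869.8 and 967 in PTU, 1369, 1479, 1421 and 1051 at 12 h, and 1009.8, 1581, 1029.8 and 1638 at 24 h (0.53 ± 0.22 at 12 h, adjusted p = 0.21). With the 12 h and PTU libraries alone in the fit, these 3 were called (adjusted p = 0.041 for Pcx, 0.047 for Aldoa and 0.044 for Hk1), as were 9.28% of all genes.

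The other members with an unadjusted p under 0.05 at 12 h were Eno1 (0.39 ± 0.16), Pdk2 (0.36 ± 0.14), Pdk4 (-0.49 ± 0.20) and Ugp2 (-0.30 ± 0.13). Between 12 h and 24 h Ugp2 had 559, 553, 615 and 528 against 784, 874, 717 and 609 (0.40 ± 0.11, adjusted p = 0.16), and Slc16a1 had 1497, 1382, 1342 and 1292 against 1776, 1536, 1567 and 1683 (0.25 ± 0.08, adjusted p = 0.19). Neither passed the test, and the Ugp2 libraries overlapped while those of Slc16a1 did not. No gene of the 5 further lists was called in a striatum contrast. Without the 24 h replicate 2, which had few counts of striatal neuron markers, 1 member was called at 12 h (Pcx, adjusted p = 0.046) and 0 in the other 2 contrasts, while 7.93%, 0.725% and 0.492% of all genes were called at 12 h, at 24 h and between them. A term for Y-linked counts left 0 members in all 3, with 0.379%, 0.0190% and 0% of all genes. Xist exceeded the Y-linked genes in 4 of 4 libraries at 24 h, in 1 of 2 in PTU and in 1 of 4 at 12 h. Library sex and time were therefore largely confounded at 24 h, and the Y-linked term rests on few libraries. On chromosome X lie 4 members (Pfkfb1, Pgk1, Pdk3 and Pdha1).

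Isozyme shares were also read in striatum. Over its libraries Hk1 held 96.5% to 99.0% of the hexokinases per exonic base, Pygb 95.2% to 97.8% of the phosphorylases, Eno2 (neuronal enolase) 72.2% to 81.4% of the enolases and Ldhb 44.9% to 61.6% of the lactate dehydrogenase subunits. In WAT the same shares were 7.1% to 24.1%, 18.2% to 50.5%, 0.2% to 0.9% and 10.9% to 25.7%. Slc2a4 held at most 1.6% of the listed glucose transporters in striatum and 83.7% to 92.5% in WAT. Pgam2 held 89.1% to 94.5% of the mutases in striatum and 0.5% to 76.4% in WAT. Among the aldolases, the lactate carriers and the synthases the same gene led in both tissues. Aldoa held 68.4% to 78.2% of the aldolases in striatum and 99.93% to 99.99% in WAT, Slc16a1 98.1% to 99.4% and 85.5% to 99.4% of both lactate carriers, and Gys1 at least 98.8% and 52.2% to 68.0% of the synthases. These are shares within a library and were not tested between tissues. Per the study's methods, reads of low mapping quality were removed. How reads that match several genes were otherwise counted was not given in the sources used here. Pgam1, with 37.2% shared windows, had 10.1 to 18.6 normalised counts in striatum, and Gapdh 60.4 to 105. In WAT they had 3598 to 7985 and 7711 to 21945. Windows shared with other genes made up 28.7% for Eno1, 20.1% for Ldha and 33.8% for Ldhb. The shares of the mutases, enolases and lactate dehydrogenase subunits can therefore depend on how each table was counted, which was not tested.

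Whether the 24 h response differed between the tissues was tested by an interaction term, with all 22 libraries fitted jointly. Of 12766 genes measured in both, 4.90% were called (2.20% more positive and 2.70% more negative in WAT). Of the 37 members 7 were called, all more positive in WAT. Pdk4 differed by 3.10 ± 0.83 on the log2 scale (2.77 in WAT and -0.26 in striatum, adjusted p = 0.034). Pfkfb1 differed by 1.62 ± 0.30 (1.30 and -0.26, adjusted p = 0.0031) and Slc16a1 by 1.12 ± 0.19 (1.24 and 0.18, adjusted p = 0.0017). Pgk1 (1.11 ± 0.29), Slc2a3 (1.01 ± 0.29), Ldhb (0.99 ± 0.24) and Gpi1 (0.83 ± 0.21) made up the rest. Hk2 and Pfkfb4 differed by 1.32 ± 0.50 and 1.22 ± 0.40 without passing the test (adjusted p = 0.14 and 0.089).

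In striatum the log2 changes of these 7 genes lay between -0.26 and 0.18, and none was called. Pfkfb1 had 18.9 and 16.8 in PTU and 16.6, 17.9, 11.9 and 13.0 at 24 h. Pdk4 had 108 and 137 in PTU and 116, 77.4, 125 and 89.3 at 24 h. Slc16a1 had 1456 and 1433 in PTU and 1776, 1536, 1567 and 1683 at 24 h, where all 4 lay above PTU. Slc2a3 had 983 and 1039 in PTU and 858, 1025, 866 and 896 at 24 h.

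The number of members whose response differed was 2 without either striatum PTU library, 3 without WAT PTU replicate 2 and 4 without the WAT 24 h replicate 2 or 3, and only Pfkfb1 and Slc16a1 were called in all 14 such fits. Either striatum PTU library, left out, ended the other 5 calls, and Slc2a3 was called in 3 of the 14 fits, Pgk1 in 6, Pdk4 in 7, Gpi1 in 10 and Ldhb in 12. Without the 24 h striatum replicate 2 it was 6, with 4.75% of all genes. With the muscle score as a term for the WAT libraries, 7 members and 4.76% of all genes were called, with Slc2a3 lost (adjusted p = 0.052) and Pgam2 added (adjusted p = 0.039).

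**Figure D5:**
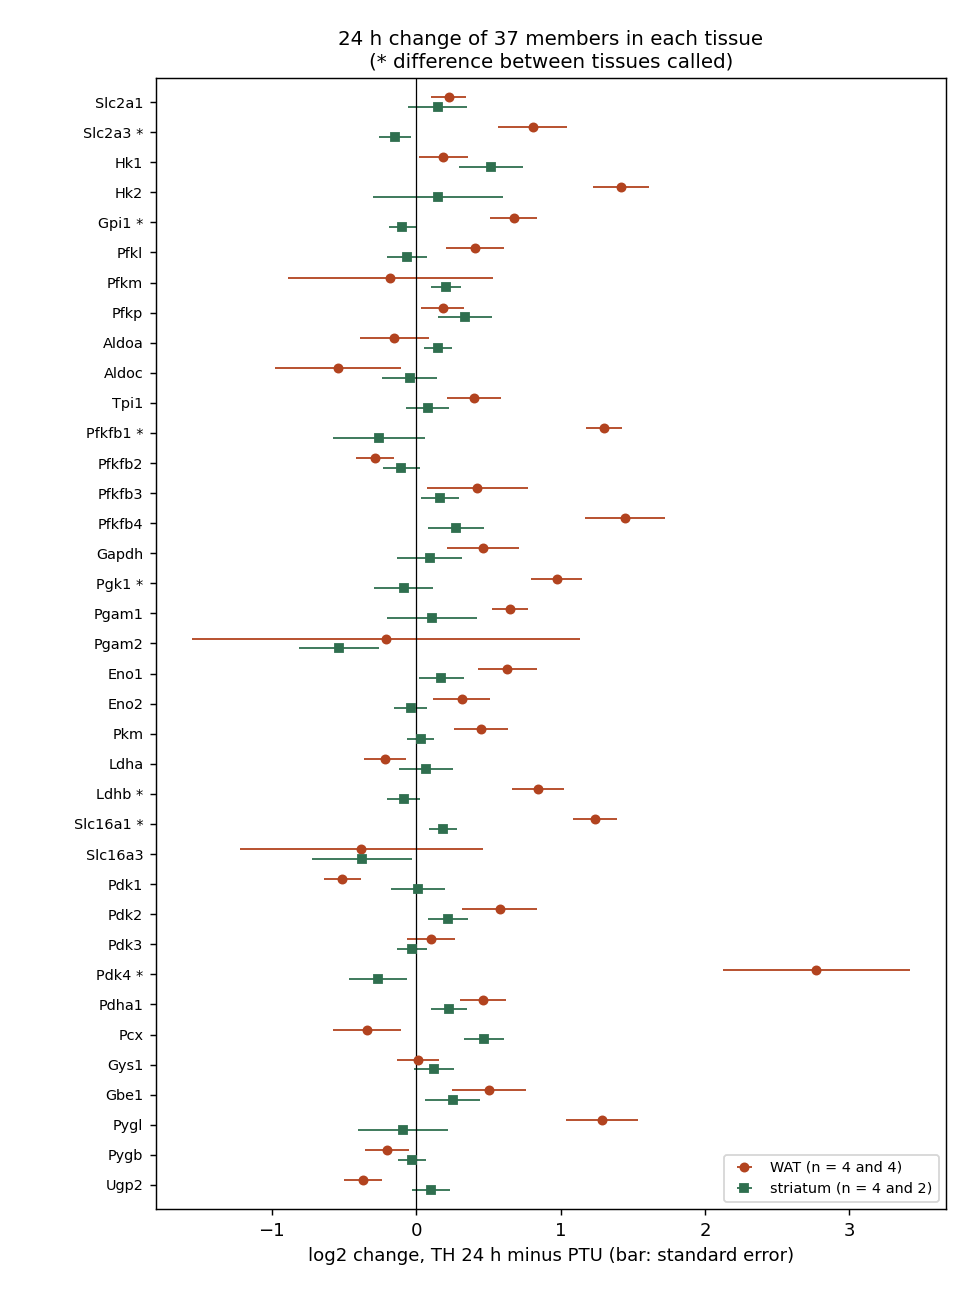
Log2 change from PTU to TH 24 h of 37 members in WAT (circles, n = 4 and 4) and striatum (squares, n = 4 and 2), with standard errors as bars and an asterisk on the 7 members whose change was called different between tissues. In striatum all 37 changes lay between -0.54 and 0.52, and in WAT Pdk4 reached 2.77.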

How the data were processed

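Bulk RNA was sequenced from 10 striatum and 12 WAT libraries. Per the study's methods, the authors aligned the reads to GRCm38 (mm10) with Bowtie, removed those of low mapping quality and counted them per gene with HTSeq. The deposited tables hold raw counts per gene, 1 table per tissue. The annotation release and strand setting were not given in the sources used here. In WAT, 235 pairs of table rows agreed within 2% in every library, against 0 pairs in striatum, and no member was in a pair. Rows whose symbol had become a date (14 in striatum, 15 in WAT, at most 0.201% of counts) were left out. Each tissue was fitted with its 3 groups in edgeR 4.0.16 (R 4.3.3; TMM factors, quasi-likelihood F test, two-sided), with Benjamini-Hochberg adjustment over all genes with a mean normalised count above 10. SE is the log2 change divided by the square root of F. The fits were also run on simulated counts, with an outcome that is not given here. Those counts took each gene's spread from these data and set no difference between libraries in muscle content, region or sex. DESeq2 1.42.0, RLE factors, no filter, fewer groups, a replicate block, muscle terms and omission of each library were alternatives. Members, marker lists and further lists were chosen with earlier results of these data known. A gene of the further lists is not reported here, so the calls of its list were not counted. All members were to be named by role, with every library's value where called. The labels do not tie libraries to animals, so the p-values measure the spread between these libraries. Exonic lengths and shared 30-base windows came from GENCODE M21, promoters from RefSeq.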

Additional observations from a re-analysis of the deposited data

Results flagged for a closer look

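The response at 24 h differed between WAT and striatum for 7 members by the interaction test of edgeR (adjusted p between 0.0017 and 0.049). The difference, WAT minus striatum on the log2 scale, was 1.01 for Slc2a3, 0.83 for Gpi1, 1.62 for Pfkfb1, 1.11 for Pgk1, 0.99 for Ldhb, 3.10 for Pdk4 and 1.12 for Slc16a1. The parts of read counting and library sex in these differences were not tested.

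In 13 of 197 groups of 4 libraries, 1 library stood apart from the other 3 by Dixon's test, where chance gives about 1 group in 20. In WAT the 6 h replicate 3, which had the highest muscle score of its group, stood apart for Pfkm (1339 normalised counts, the others 409 to 499) and Pgam2 (689, the others 8.85 to 108). PTU replicate 1 stood apart for Ldhb (2120.3, the others 1204 to 1262) and Gbe1 (7530.0, the others 3005 to 3759). At 24 h, replicate 3 stood apart for Pcx (23146, the others 17539 to 18366), and replicate 2 for Gbe1 (5449, the others 6384 to 6533) and Pygb (1835, the others 2755 to 2894).

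In striatum the 24 h replicate 2, which had few counts of projection neuron markers, stood apart for Pdk1 (352 normalised counts, the others 229.7 to 239) and Slc16a3 (11.2, the others 24.1 to 25.4). The 12 h replicate 3 did for Pfkm (784, the others 713 to 716) and the 12 h replicate 1 for Pygb (537, the others 472 to 475). At 24 h, replicate 3 did for Pcx (189, the others 146 to 150.2) and replicate 1 for Pygb (442, the others 502 to 509).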

How the results depend on the processing

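Of the counts of members called under 142 alternatives, 116 stayed within 1.5 times the main count. The alternatives include those of the 3 striatum contrasts, whose main count was 0. Most of these gave 0 again and so count as unchanged. DESeq2 gave 1 member in striatum at 12 h (0 by edgeR) and 16 in WAT from 6 h to 24 h (10 by edgeR). With only the groups compared in the fit, striatum had 3 at 12 h, WAT had 5 at 6 h (8 otherwise) and the difference between tissues held for 2 (7 otherwise). The muscle score as a term gave 5 at 6 h and 4 between the WAT times. Without both muscle-rich PTU libraries, chosen after seeing the data, there were 22 at 24 h (12 otherwise) and 16 between the times. At 24 h against PTU, muscle content and time cannot be told apart in that fit. With 1 library left out, the counts ran from 4 to 10 in WAT at 6 h, 11 to 18 at 24 h, 3 to 14 between the times, 2 to 10 for the difference between tissues, 3 to 6 for the muscle term, 0 to 1 in striatum at 12 h, and 0 to 0 in the other striatum contrasts. The cause was not tested.

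The replicate number as a replicate block gave 5 members at 6 h and 6 between the WAT times. Same-numbered libraries did not deviate together (correlations of -0.395 to 0.267 in striatum and -0.472 to 0.394 in WAT), so the numbers were not taken to pair the libraries.

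Directions reversed for uncalled muscle-type genes. At 24 h in WAT, Pfkm (-0.18) became 0.13 with the block, 0.64 with the muscle sum as a term and 2.12 without both muscle-rich libraries, and ran from -0.58 to 0.65 with 1 library left out. Pgam2 (-0.21) became 0.50, 1.89 and 5.72 in the same order and 0.60 with the muscle score, with a range of -0.91 to 1.31. Slc16a3 (-0.38) became 0.61 with the muscle sum and 2.55 without both libraries, with a range of -0.89 to 0.55. The difference between tissues for Pgam2 (0.37) ran from -0.35 to 1.88.

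Over all genes, calls changed by more than 1.5 times under DESeq2 in striatum (152 to 817 at 12 h, 55 to 203 at 24 h, 0 to 240 between), in WAT at 6 h (1296 to 2145) and between the times (1329 to 2169). With the block they were 0, 0 and 7 in striatum and 778 between the WAT times. With only the groups compared they were 1468 in striatum at 12 h and 0 at 24 h, 832, 2036 and 2433 in WAT, and 264 for the difference between tissues (626 otherwise). The muscle score left 500 between the WAT times and the omission of both muscle-rich libraries 2456. Without a filter, striatum had 308, 104 and 41, and the Y-linked term left 60 and 3 against PTU. Omission of 1 library gave 0 to 1257 in striatum at 12 h. Striatum had 2 PTU libraries and the lower depth, and the effect of depth was not tested.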
